A study of Monodelphis domestica with 7 samples.

Results

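The 4 genes described here are TIMP1 (ENSMODG00000010849), CEBPD (ENSMODG00000010525), LBP (ENSMODG00000000183) and OLFM4 (ENSMODG00000014735). They were taken by their identifiers from a table of 21314 genes of the grey short-tailed opossum, *Monodelphis domestica*, because they were known to be higher in injured cord in these same libraries. Their injured-to-control differences are therefore given as values, with no test. Other genes in the table are used only for comparison.

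The acute-phase response is the change in secreted and blood proteins that follows tissue damage or infection, driven largely by interleukin-6, interleukin-1 and related cytokines acting through STAT3, NF-kappaB and C/EBP transcription factors. CEBPD encodes C/EBP delta, one of those factors, and is itself induced by the same cytokines. LBP, the lipopolysaccharide-binding protein made mainly in liver, hands bacterial lipopolysaccharide to the receptor CD14. TIMP1 is a secreted inhibitor of matrix metalloproteinases that is induced by the interleukin-6 family of cytokines, in astrocytes among other cells. OLFM4, olfactomedin 4, is a secreted glycoprotein known from intestinal crypts and from the granules of a subset of neutrophils.

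RNA was sequenced from the spinal cord rostral to thoracic level 10 (T10), the level at which the cord had been cut completely. P7+24h injured pups were transected at postnatal day 7 and collected 24 hours later, and were set against P8 control pups. P28+24h injured pups were transected at postnatal day 28 and collected 24 hours later, and were set against a P29 control. The younger controls were separate litters, while the older controls were anaesthetised littermates. Each group had a library in run 1 and in run 2, the runs being sequenced from separately collected cords, except the P29 control, for which only run 1 was analysed here. Pups of both sexes from 1 colony were used and no genetic change is named. Each library was a pool of cords by the description of the methods, so the spread between libraries is a spread between pools. The P29 control has no replicate and the other groups have n = 2.

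The 7 libraries held 3332232 to 6256074 counted reads. The runs differed strongly: the run 2 minus run 1 differences of the 3 groups with both runs correlated across 13534 genes with r from 0.7 to 0.8, and for that reason values are given by run. The oligodendrocyte genes MBP, MAG, OLIG2 and GPR17 and the astrocyte genes GFAP, ALDOC and VIM were read in every library. So was SLC18A3, the only neuronal marker with an identifier. Being read is a weak check and does not test the tissue label. The P28+24h injured libraries also carried skeletal muscle transcripts. Over 8 muscle genes the summed level was 181 CPM (reads scaled to library size) in run 1 and 70.6 in run 2, against 18.4 in the P29 control and 10.4 to 20.5 in the 4 younger libraries. CPM values are scaled by the trimmed mean of M-values (TMM), and intervals in brackets are exact 95% Poisson intervals of the count, which cover counting error only.

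TIMP1 was read in every library at low depth, from 6 to 83 reads. Its level was 4.20 CPM (2.45 to 6.73) in P8 control run 1 and 0.987 CPM (0.362 to 2.15) in run 2. After transection at P7 it was 9.44 CPM (6.61 to 13.1) in run 1 and 5.67 CPM (4.02 to 7.79) in run 2. Both injured libraries were above both controls, and the ratio of run 2 to run 1 was 0.235 in the controls and 0.601 in the injured cords. In the older pups the P29 control had 5.17 CPM (3.06 to 8.16), and the P28+24h injured cords had 21.5 CPM (16.5 to 27.6) in run 1 and 13.4 CPM (10.7 to 16.7) in run 2. The order of the group means ran from P8 control (2.59 ± 2.27 CPM, SD, n = 2) through the P29 control and P7+24h injured (7.56 ± 2.66, n = 2) to P28+24h injured (17.5 ± 5.71, n = 2). The interval of the P29 control overlapped those of P8 control run 1 and of both P7+24h injured libraries, while the interval of P8 control run 2 lay below that of every other library. Over both runs the ratio of the P29 control to the P8 controls was 2.27 with a counting interval of 1.16 to 4.40, and within run 1 it was 1.23 (0.598 to 2.54). TIMP1 was lower in run 2 than in run 1 in each of the 3 groups that had both.

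The fitted log2 change of TIMP1 was 1.58 ± 0.72 (SE) in P7+24h injured over P8 control and 1.74 ± 0.90 in P28+24h injured over P29 control. With the run as a block the values were 1.67 ± 0.40 and 2.17 ± 0.46. The younger value depended on the controls, being 2.89 without P8 control run 1 and 0.83 without P8 control run 2. Within runs, on log2 CPM with a prior count of 2, TIMP1 was 1.09 higher in the injured library of run 1 and 2.11 higher in that of run 2 at the younger age. At the older age it was 1.97 above the P29 control in injured run 1, the run of that control. Injured run 2 was 1.31 above the same control, a difference across runs.

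For CEBPD the ratio of run 2 to run 1 was 0.61 in P8 control, 0.849 in P7+24h injured and 1.15 in P28+24h injured. The P8 controls had 5.93 CPM (3.80 to 8.83) in run 1 and 3.62 CPM (2.27 to 5.48) in run 2. The P7+24h injured cords had 13.9 CPM (10.4 to 18.2) and 11.8 CPM (9.34 to 14.7), above both controls with no overlap of their counting intervals. The P29 control, uninjured, stood at 15.5 CPM (11.6 to 20.2), inside the interval of the first injured young library and overlapping that of the second. The P28+24h injured cords reached 40.9 CPM (33.8 to 49.1) and 47.1 CPM (41.9 to 52.9). These intervals leave out the spread between pools, and the P29 control has no replicate. By counting error alone, CEBPD had 3 levels. P8 control was at the bottom, P7+24h injured and P29 control together in the middle and P28+24h injured at the top.

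The fitted log2 change of CEBPD was 1.44 ± 0.37 (SE) after injury at P7 and 1.51 ± 0.45 after injury at P28, or 2.70-fold and 2.84-fold. With the run as a block these were 1.46 ± 0.29 and 1.58 ± 0.33. Leaving out each library in turn moved the younger value between 1.11 and 1.82 and the older one between 1.34 and 1.59.

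LBP was close to absent in the youngest controls, with 1 read in P8 control run 1 and 2 reads in run 2. The P7+24h injured cords had 5 and 17 reads, or 1.31 CPM (0.426 to 3.06) and 2.54 CPM (1.48 to 4.06). Over both runs this was 22 reads against 3, a ratio of 7.06 with an exact 95% counting interval of 2.12 to 36.9. In run 1 alone, with 5 reads against 1, the interval of the ratio ran from 0.594 to 251, so no difference was detectable there. The P29 control had 17 reads or 4.88 CPM (2.84 to 7.81), and the P28+24h injured cords had 75 and 282 reads, or 26.4 CPM (20.8 to 33.2) and 45.7 CPM (40.5 to 51.3). Both injured libraries were above the control and also differed from each other beyond counting error. The fitted log2 change at P28 was 2.89 ± 0.63 (SE), or 7.39-fold, and 2.43 ± 0.38 with the run as a block, and it was 2.37 without injured run 2 and 3.21 without injured run 1. LBP was higher in run 2 than in run 1 in all 3 groups, although the 2 younger groups had too few reads to separate the runs. In rising order its groups were the P8 control, the young injured cords, the older control and the older injured cords, and the intervals of the 2 middle groups overlapped.

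OLFM4 was read in quantity in only 1 of the 4 groups. The controls had 0 and 2 reads at P8 and 0 reads at P29, where the floor of 3 reads that stands for a count of 0 is 0.861 CPM and the upper exact Poisson limit is 1.06 CPM. The P7+24h injured cords had 4 and 3 reads, or 1.05 CPM (0.286 to 2.69) and 0.448 CPM (0.0924 to 1.31). That is 7 reads against 2, a ratio of 3.37 with a counting interval of 0.642 to 33.3, so no difference was detectable at this depth. The P28+24h injured cords had 50 and 104 reads, or 17.6 CPM (13.1 to 23.2) and 16.8 CPM (13.8 to 20.4). The intervals of these 2 libraries overlapped. Against a floor of 3 reads in the P29 control library, OLFM4 was 20.5-fold higher in injured run 1, the run in which that control was sequenced. In injured run 2 it was 19.6-fold higher. These ratios set point values against the floor and are not lower limits, since the upper exact limit of that control, 1.06 CPM, lies above the floor. The fitted log2 change of OLFM4 had rank 1 of the 13534 genes tested at P28, but that value rests on the small constant added to a count of 0. In bulk tissue, fewer cells of a type and less RNA per cell cannot be told apart, here and for every gene in the report.

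**Figure D1:**
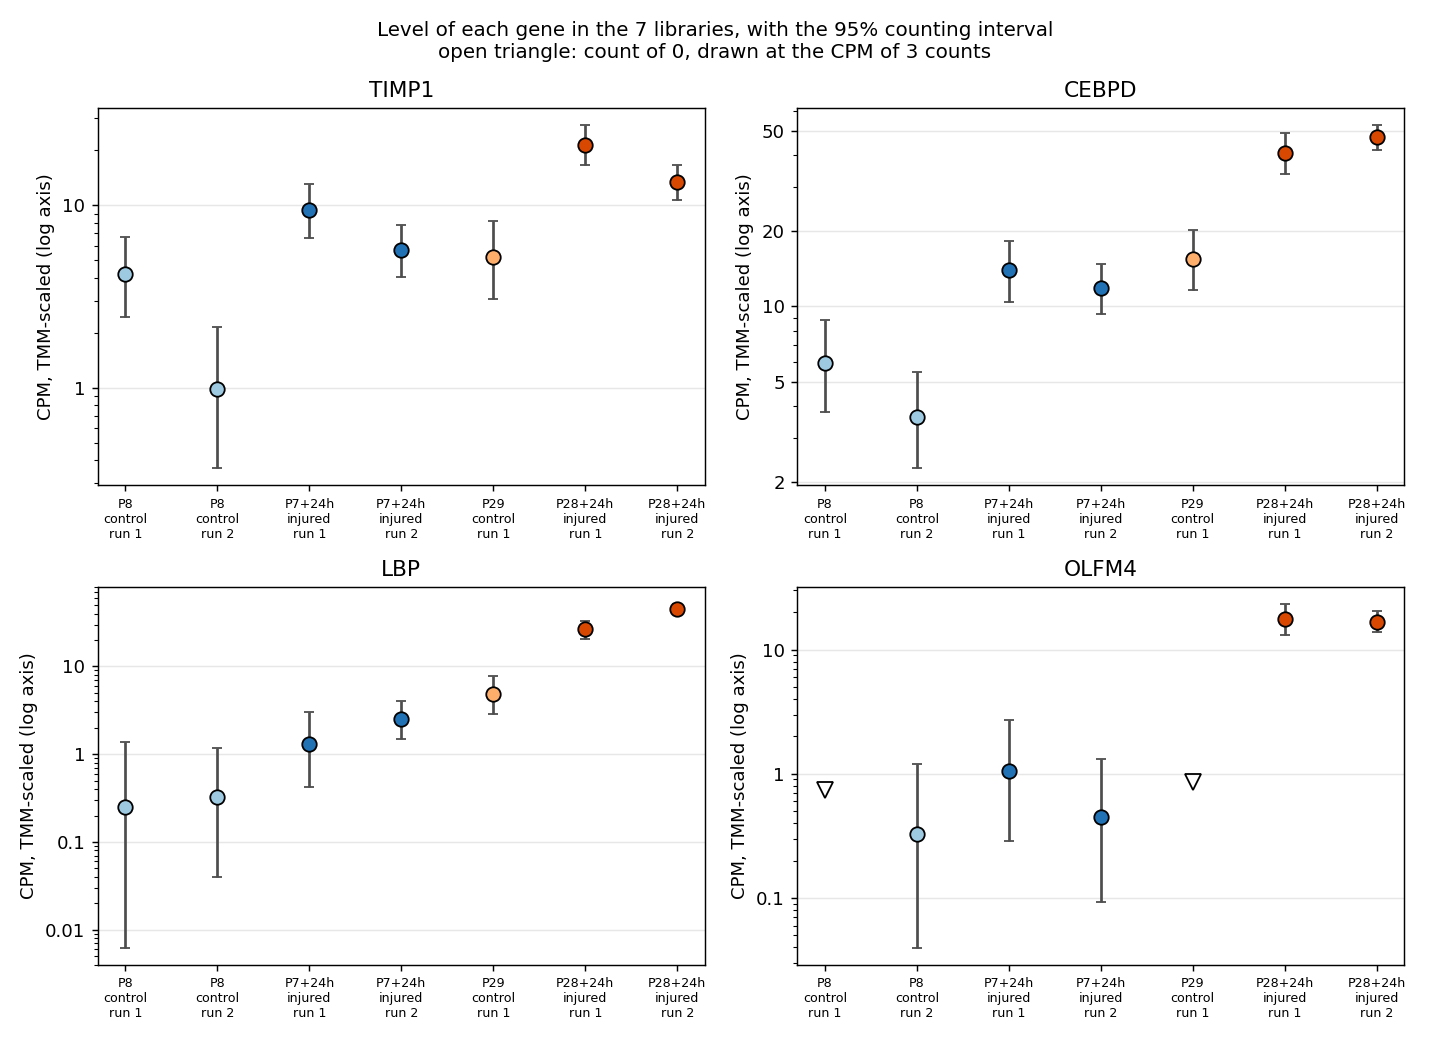
Level of TIMP1, CEBPD, LBP and OLFM4 in each library, in TMM-scaled CPM on a log axis whose range differs between panels. Points are single libraries, bars are exact 95% Poisson intervals of the count, and open triangles mark a count of 0 drawn at the level of 3 reads. CEBPD shows the uninjured P29 control at the level of the injured P7+24h cords, LBP climbs from 0.247 to 45.7 CPM over the libraries, and OLFM4 stands at 17.6 and 16.8 CPM in the P28+24h injured cords and near or under the floor elsewhere.

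Set beside all genes, the injured libraries of all 4 genes lay above every control of their age. At the younger age 8.55% of the 13534 genes had both injured libraries above both controls, at the older age 22.2% had both above the single control, and 2.87% had both. Since the genes were chosen for these differences, nothing follows from the 4 of 4. By the call rule of an adjusted p under 0.05 and a change of at least 2-fold, edgeR's quasi-likelihood test without the run called 0 genes at P7+24h (69 at an unadjusted p under 0.05; 4 by edgeR's exact test, 2 by DESeq2) and 0 at P28+24h (157 unadjusted; 3 by the exact test, 0 by DESeq2), so percent called was 0 at both ages. With the run as a block it called 0.0148% of genes after injury at P7, and after injury at P28 it called 0.754%, 79 higher (0.584%) and 23 lower. Leaving out any 1 of the 6 libraries that could be spared moved these blocked counts from 2 to between 7 and 51 at P7+24h and from 102 to between 300 and 960 at P28+24h. A likelihood ratio test in the same blocked fit called more genes, 0.266% higher at P7+24h and 2.61% higher and 1.03% lower at P28+24h. The 4 genes themselves get no call in these contrasts, which chose them.

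**Figure D2:**
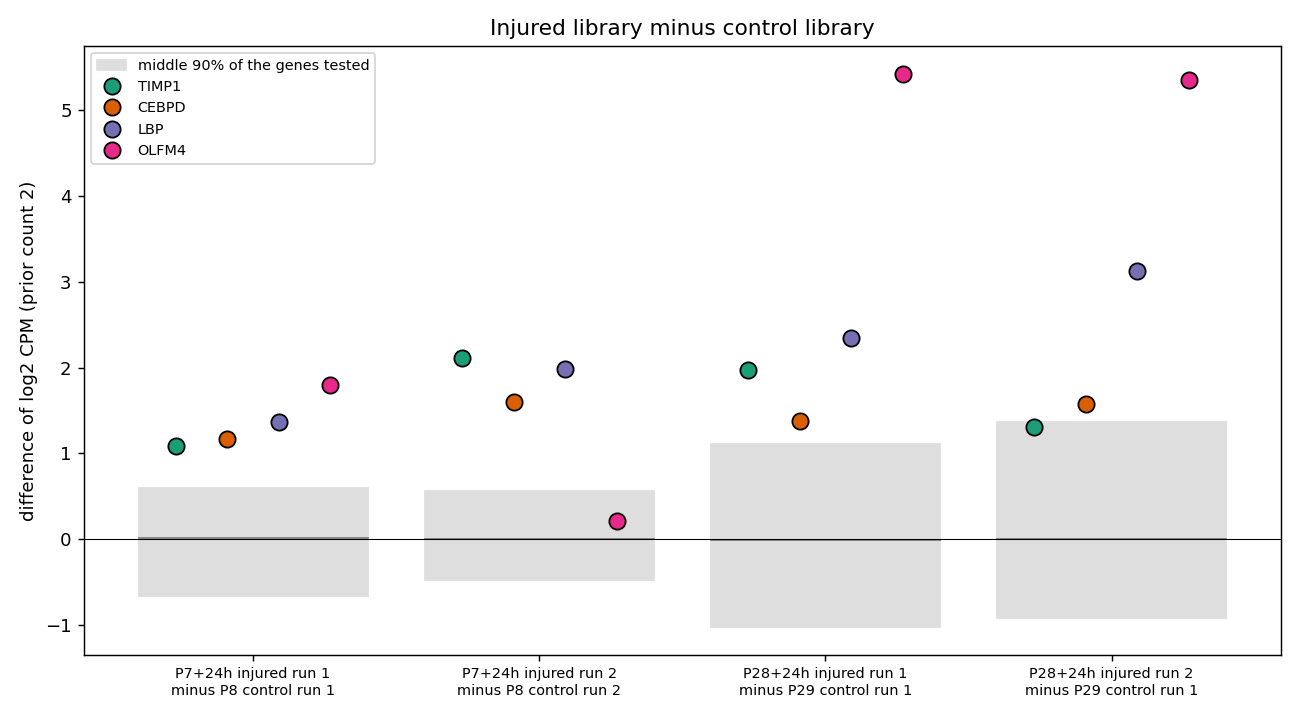
Difference in log2 CPM (prior count 2) between each injured library and a control library, the control of the same run at the younger age and the single P29 control at the older one. Grey boxes span the middle 90% of the genes tested. OLFM4 lies at 5.42 and 5.35 at P28+24h but at 1.80 and 0.21 at P7+24h, where it rests on 0 to 4 reads, and TIMP1 lies inside the grey box for the last pair, at 1.31.

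The comparison of the uninjured cords asks whether the 4 genes stood at another level in uninjured cord at the older age. It does not use the injured-to-control differences that chose the genes, but it shares its control libraries with them. The ages also differ in how control litters were drawn, which cannot be told apart from age here. LBP and CEBPD were higher in the P29 control than in both P8 controls. LBP had 17 reads in the P29 control against 3 in both P8 controls, a ratio of 16.5 with a counting interval of 4.76 to 87.7, and 19.7 (3.09 to 825) within run 1. By edgeR's quasi-likelihood fit the adjusted p was 0.0633 without the run and 0.000637 with the run as a block. CEBPD was 1.71 ± 0.43 (SE) higher on the log2 scale, or 3.27-fold, with an adjusted p of 0.115 in the same edgeR test, and 1.68 ± 0.37 with an adjusted p of 0.00639 with the run as a block. Within run 1 its ratio was 2.61 (1.59 to 4.42).

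TIMP1 did not pass either edgeR test. Its log2 difference between the ages was 1.04 ± 0.88 with an adjusted p of 0.552, and 0.71 ± 0.55 with an adjusted p of 0.356 with the run as a block. The pooled ratio of 2.27 given above rests on P8 control run 2, since within run 1 the interval of the ratio held 1. OLFM4 was at or under the floor of 3 reads in all 3 control libraries and no ratio is given. Without the run, 0 of the 4 genes were called between the ages, where 1.79% of all genes were called (edgeR quasi-likelihood, with 2548 genes at an unadjusted p under 0.05; the exact test and DESeq2 each called LBP). Those 242 genes became 0 without either P8 control and 96 to 139 without any 1 of the 4 injured libraries. With the run as a block, 2 of the 4 were called, both higher in the older cord, where 12.5% of all genes were called higher.

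Macrophage and microglial markers moved with LBP and CEBPD across the uninjured cords. The summed level of 10 such genes was 34.9 and 38.5 CPM in the P8 controls and 152 CPM in the P29 control, and 6 of the 10 were called higher in the older cord in the blocked fit, beside 12.5% of all genes. The same sum was 109 and 158 CPM in the P7+24h injured cords and 514 and 369 CPM in the P28+24h injured cords, and 0 of the 10 were called after either injury by the quasi-likelihood test in that fit, beside 0.0148% and 0.754% of all genes. The likelihood ratio test in the same fit called 8 of the 10 higher at P7+24h, beside 0.266%, and 9 of the 10 higher at P28+24h, beside 2.61%. All 10 markers were among the genes the study had listed as changed in these samples. The part of these cells in the levels of the 4 genes was not tested.

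Whether a gene responded differently to injury at the 2 ages was tested for TIMP1 and CEBPD, which the study listed at both ages. The test is the difference between the older and the younger log2 change. It is built from the 2 injury contrasts that chose these genes, and being listed at both ages favours changes of like size. A high p-value here is therefore no evidence of a like response. For CEBPD it was 0.07 ± 0.59 (SE) with an adjusted p of 1 in edgeR's quasi-likelihood test, and 0.12 ± 0.45 with an adjusted p of 0.961 with the run as a block. For TIMP1 it was 0.17 ± 1.16 with an adjusted p of 1, and 0.51 ± 0.64 with an adjusted p of 0.862 in the blocked fit. The direction turned when P8 control run 1 was left out, to -0.31 for CEBPD and -1.15 for TIMP1 without the block, so neither a difference nor a like response is shown. Over all genes the edgeR test called 0 without the run, with 59 at an unadjusted p under 0.05 and 0 by DESeq2, and 0.0369% with it.

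LBP and OLFM4 were listed by the study only at the older age, so their contrast between ages is given as levels. From P7+24h injured to P28+24h injured in run 1, LBP was 20.2 times higher (8.27 to 63.9) and OLFM4 16.8 times higher (6.17 to 64.1). Within run 2 the ratios were 18 (11 to 31.3) for LBP and 37.6 (12.5 to 185) for OLFM4. For LBP the controls were also apart between the ages. For OLFM4 all controls were at or under the floor. For CEBPD the same ratios were 2.94 (2.11 to 4.15) and 3.99 (3.11 to 5.19), and for TIMP1 2.28 (1.49 to 3.54) and 2.37 (1.59 to 3.57).

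The genes that act with these 4 could be followed only where the study's tables pair a symbol with an identifier, and nearly all of those were picked by the study from these libraries. Their counts are therefore no independent evidence of direction. Of 38 acute-phase plasma proteins, 5 had an identifier and 4 passed the filter on low counts, LBP included. Of the other 3, C3 and SERPING1 were called higher at P28+24h in the blocked fit, beside 0.584% of all genes, and the median log2 change of the 4 was 1.82 beside 0 for all genes. C3, the central complement component, was at 10.6 CPM in the P29 control against 34.2 and 77.7 CPM after injury at P28, a log2 change of 1.74 with an adjusted p of 0.0393 with the run as a block and of 1 without it (edgeR). SERPING1, the inhibitor of the first complement component, had 19.2 CPM in the control and 76.5 and 49.4 CPM in the injured cords, with a blocked log2 change of 1.89 and an adjusted p of 0.0217 (1 without the run, edgeR). The coagulation factor gene F10 had 10.9 CPM in the control and 19 and 19.3 CPM in the injured cords and was called by neither blocked test (adjusted p of 0.242 and 0.132). ALB, the albumin gene and the only hepatocyte marker with an identifier, had 0 reads in all 7 libraries.

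In the blocked fit C3, like LBP, was higher in the older uninjured cord. Its levels were 1.48 and 1.97 CPM in the P8 controls and 10.6 CPM in the P29 control, with a log2 difference of 3.28 and an adjusted p of 0.000262 in the blocked edgeR fit and of 0.138 without the run. SERPING1 had 21 and 16.5 CPM at P8 and 19.2 CPM at P29 and was not called.

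Of 33 genes of interleukin-6 and interleukin-1 signalling and of STAT3 and NF-kappaB targets, 6 could be followed. By the blocked quasi-likelihood test at P28+24h, IL1B was called higher, the other 5 were not called, and the median log2 change was 2.64 beside 0 for all genes. Without the run IL1B was not called either. IL1B, which encodes the cytokine interleukin-1 beta, had 0 reads in both P8 controls, 7 and 8 reads in the P7+24h injured cords, 3 reads in the P29 control and 47 and 110 reads in the P28+24h injured cords. The older ratio was 20.2 with a counting interval of 6.80 to 99.2. Among receptors, OSMR, the oncostatin M receptor subunit, had 1 read in the P29 control, 15 in injured run 1 and 35 in injured run 2 (ratio 19.3, interval 3.31 to 779). IL1R1, the receptor of interleukin-1, was at 2.01 CPM in the older control cord against 8.46 and 9.07 CPM after injury at P28. BCL3, an NF-kappaB partner, had 2.01 CPM in that control and 12.7 and 10.4 CPM in the injured cords. By edgeR's blocked quasi-likelihood test the adjusted p at P28+24h was 0.156 for OSMR, 0.133 for IL1R1 and 0.0655 for BCL3. The blocked likelihood ratio test called all 3 higher, with an adjusted p of 0.0164, 0.024 and 0.000418.

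IL6ST followed the run more than the injury. This gene, the signalling subunit gp130 shared by interleukin-6 family receptors, had 9.70 to 26.4 CPM in the 4 libraries of run 1 and 51.7 to 73.0 CPM in the 3 of run 2. Unlike IL1B, OSMR, IL1R1 and BCL3, IL6ST had a negative blocked log2 change at P28+24h, -0.95, against 0.67 without the run. At P7+24h its log2 change was -0.26 with the block and -0.11 without it. Between the uninjured cords, IL6ST and the tumour necrosis factor receptor TNFRSF1A were called higher at P29 with the block (adjusted p of 0.0372 and 0.00274, edgeR) and not without it (0.905 and 0.158), and for IL6ST the direction turned from a log2 difference of 1.06 with the block to -0.37 without it. TNFRSF1A had 0.494 and 2.14 CPM in the P8 controls, 8.32 CPM in the P29 control and, after injury, 4.46 to 5.23 CPM at the younger and 10.6 to 17.6 CPM at the older age.

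**Figure D3:**
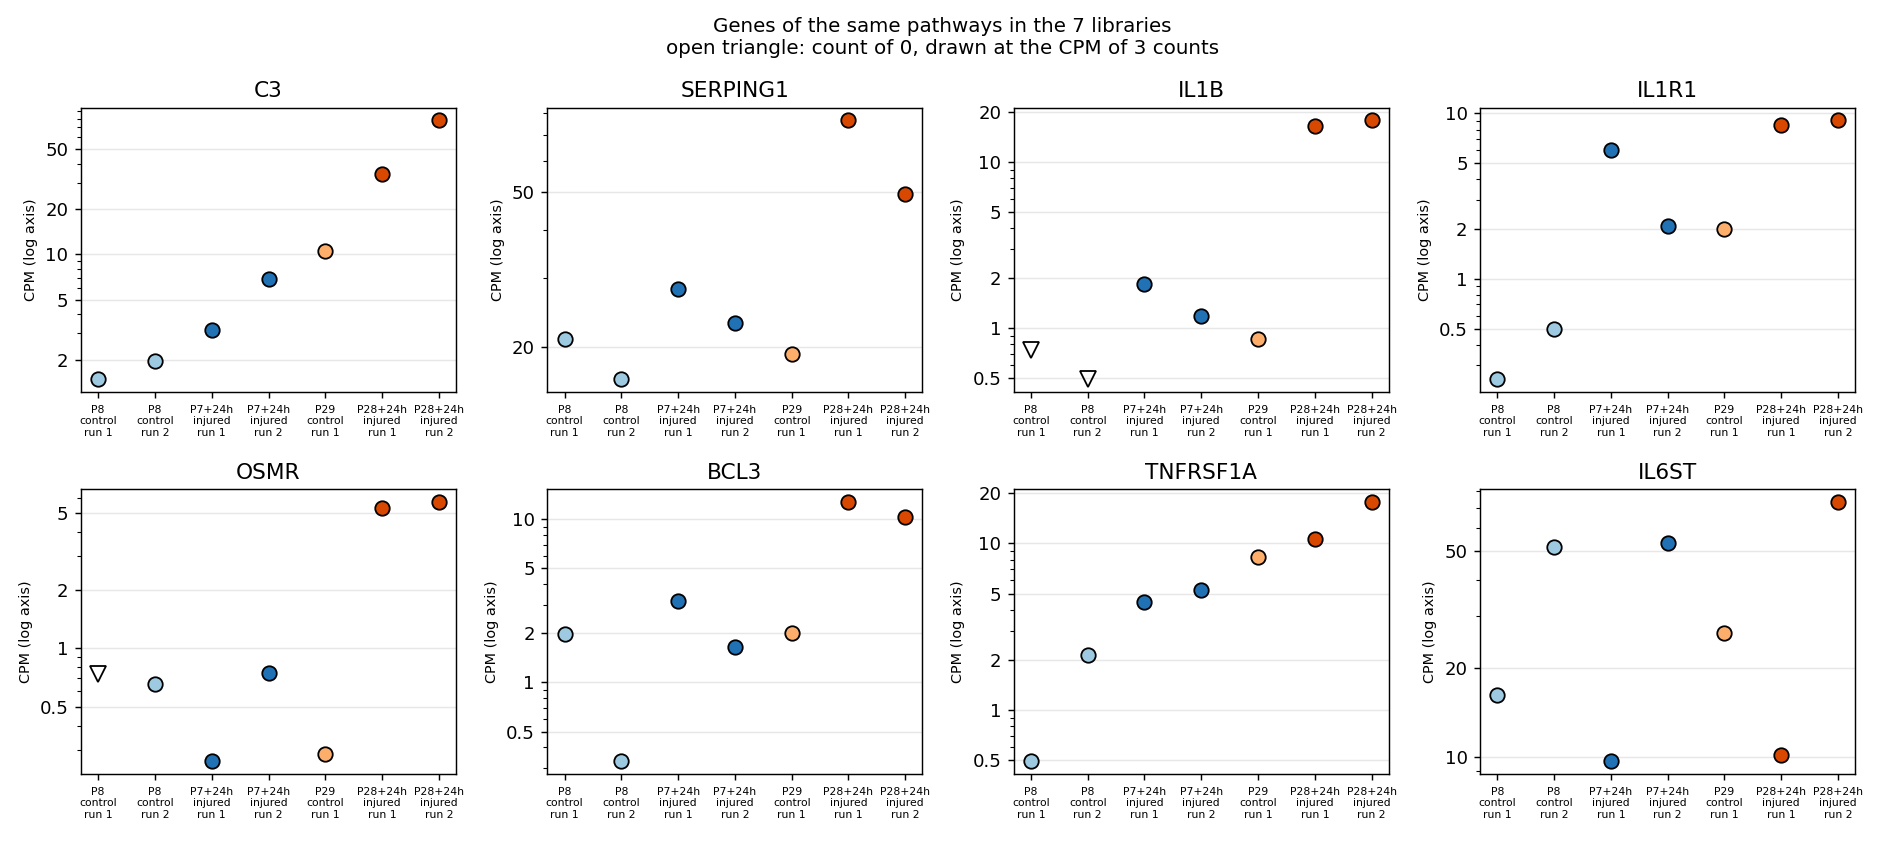
Levels in CPM, on log axes whose range differs between panels, of 8 genes of the acute-phase and cytokine pathways in the 7 libraries. Open triangles mark a count of 0 drawn at the level of 3 reads. IL1B and OSMR have the P28+24h injured libraries well above the other 5, C3 steps upward from P8 control to P28+24h injured, and IL6ST separates the runs, with 9.70 to 26.4 CPM in run 1 and 51.7 to 73.0 CPM in run 2.

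Of 26 TIMP and metalloproteinase genes, 2 could be followed besides TIMP1, and neither was called at either injury by the quasi-likelihood test. MMP1, which the study reported as strongly higher after injury at P28, was not among them, so the direction of the list as a whole is not shown. MMP15, a membrane-bound metalloproteinase, stood at 33.6 CPM in the P29 control, at 11.6 CPM in injured run 1 and at 51.3 CPM in injured run 2 of the older age. ADAM17, the sheddase that releases tumour necrosis factor, stood at 57.1 CPM in that control, at 21.9 CPM in injured run 1 and at 62.0 CPM in injured run 2. Their injured run 1 libraries were below and their run 2 libraries above the control, whereas both TIMP1 libraries were above it. With the run as a block both log2 changes were negative, -1.28 for MMP15 (adjusted p of 0.0647 by edgeR's quasi-likelihood fit, 0.00304 by its likelihood ratio test) and -1.02 for ADAM17 (0.133 and 0.0361), so the likelihood ratio test called both lower. ADAM17 was called higher in the P29 control than at P8 in the blocked fit (log2 difference 1.63, adjusted p of 0.00211; 1.10 and 0.43 without the run, edgeR). CEBPD was the only gene that could be followed of the 7 C/EBP genes, LBP of the 19 lipopolysaccharide recognition genes and OLFM4 of the 10 olfactomedin genes.

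Neutrophil, muscle and red cell markers were also set beside OLFM4. The summed level of 4 neutrophil genes was 20.3 and 8.88 CPM in the P8 controls, 32.3 and 23.0 CPM in the P7+24h injured cords, 12.1 CPM in the P29 control and 30.3 and 55.1 CPM in the P28+24h injured cords. S100A8, another gene of that list, had 4.70 and 0.823 CPM in the P8 controls and 8.65 and 1.49 CPM in the P7+24h injured cords. It had 1.15 CPM in the P29 control and 6.70 and 5.34 CPM in the P28+24h injured cords. CSF3R, the receptor of granulocyte colony-stimulating factor, had 4.70 and 2.80 CPM in the P8 controls and 4.46 and 3.58 CPM after injury at P7. It had 0.861 CPM in the P29 control and 2.12 and 7.45 CPM after injury at P28. Both genes, like OLFM4, were higher in both older injured cords than in their control. Unlike OLFM4, CSF3R was lower in P28+24h injured run 1 than in every younger library, and S100A8 was highest in P7+24h injured run 1. S100A9 was also highest there, at 12.9 CPM against 8.46 and 5.34 CPM after injury at P28. ITGB2 differed, being highest in P28+24h injured run 2. It had 3.21 and 5.27 CPM in the P8 controls and 6.29 and 16.3 CPM after injury at P7. It had 6.6 CPM in the P29 control and 13 and 36.9 CPM after injury at P28. ITGB2 thus made up most of the summed level in both injured libraries of run 2. The blocked quasi-likelihood test called none of the 4 listed markers at either injury. The likelihood ratio test called ITGB2 at P7+24h (log2 change 1.42, adjusted p of 0.00504) and S100A8 at P28+24h (3.29, 0.00999), both higher. The median blocked log2 change of the 4 genes at P28+24h was 2.31, beside 0 for all genes. The summed level of 7 erythroid genes was lower in run 2 than in run 1 in every group that had both. It was 454 and 81.4 CPM in the P8 controls and 296 and 72.1 CPM in the P7+24h injured cords. In the older pups it was 288 CPM in the P29 control of run 1 and 670 and 193 CPM in the P28+24h injured cords. It was thus above the P29 control within run 1 and below it in injured run 2, a difference across runs. In the blocked fit 3 of the 7 were called higher at P28+24h, beside 0.584% of all genes, with a median log2 change of 2.00. LGALS4, the only intestinal marker with an identifier, had 18.0 and 0.165 CPM in the P8 controls, 15.5 and 0.299 CPM after injury at P7, 2.30 CPM in the P29 control and 25.4 and 3.56 CPM after injury at P28. Its blocked log2 change at P28+24h was 3.85, with an adjusted p of 0.0514 by edgeR's quasi-likelihood fit and 0.000135 by its likelihood ratio test. Muscle genes stood apart in the same group as OLFM4, with 2 of the 8 called higher at P28+24h in the blocked fit, beside 0.584% of all genes. The likelihood ratio test called 6 of the 7 erythroid and 6 of the 8 muscle genes higher there, beside 2.61%. The part of these cell types in the level of OLFM4 was not tested.

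**Figure D4:**
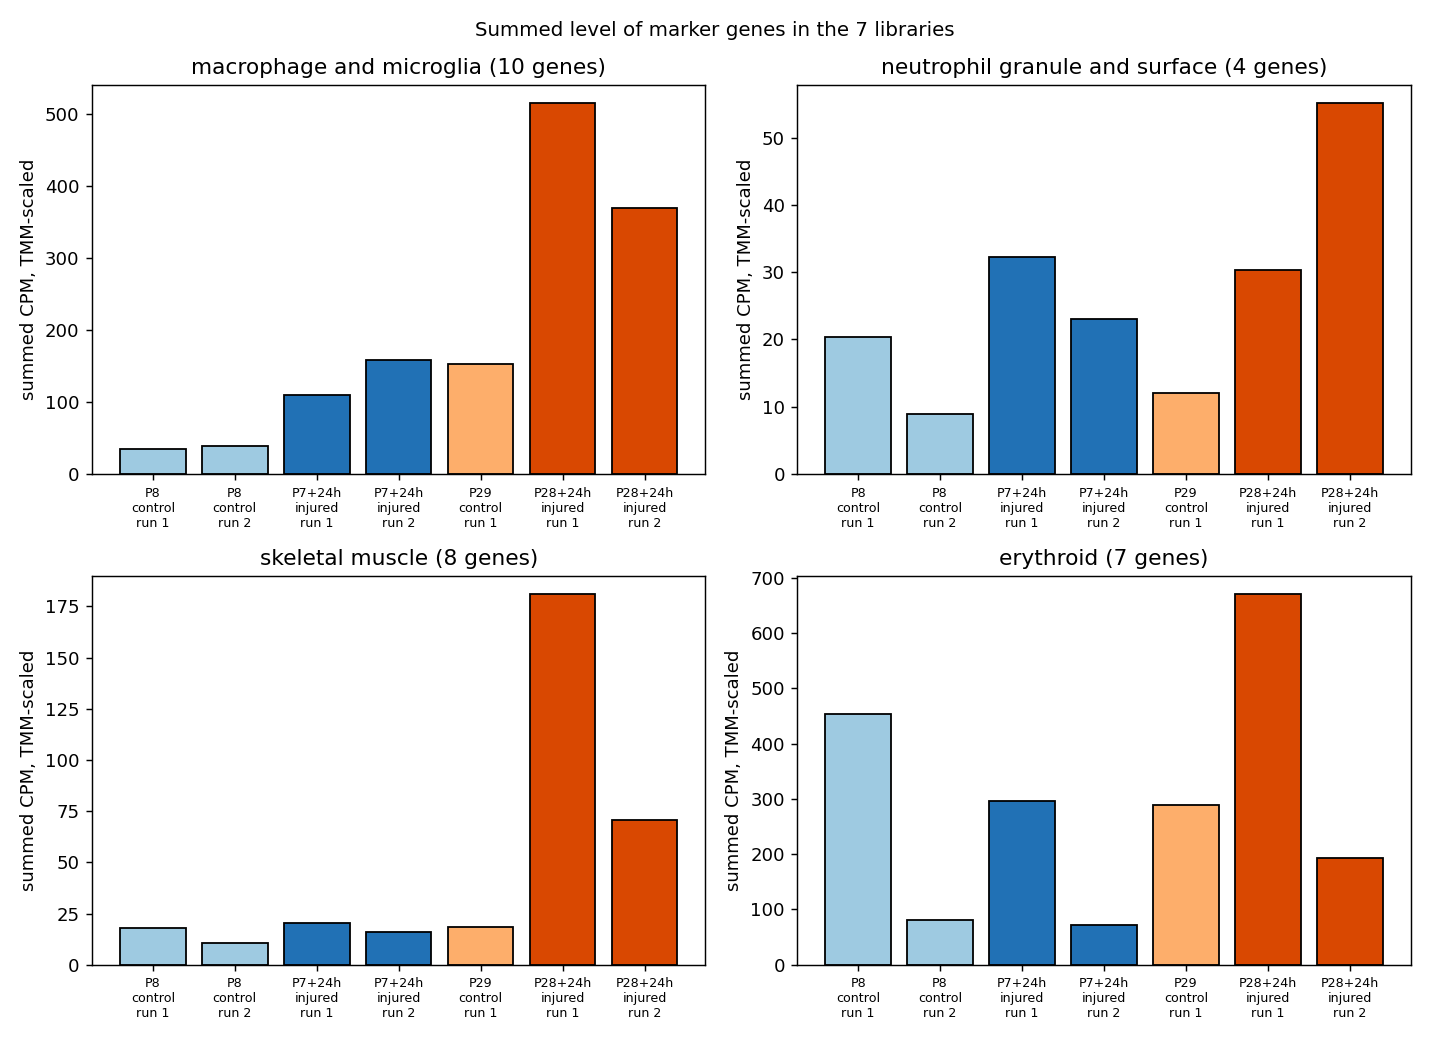
Summed CPM of marker genes of 4 cell types in each library, with axes that start at 0 and differ between panels. Macrophage and microglial genes are higher in the injured libraries of both ages and in the P29 control than at P8, muscle genes stand at 181 and 70.6 CPM in the P28+24h injured libraries against 10.4 to 20.5 CPM elsewhere, and erythroid genes are higher in run 1 than in run 2 and highest in each run in the P28+24h injured libraries.

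The genes with the most similar course over the 7 libraries were sought among 661 other genes with a symbol that passed the filter, by Pearson's r of log2 CPM. For LBP they were C3 (r = 0.99), the myosin gene MYO1F (0.98) and SPI1 (0.97), which encodes the myeloid transcription factor PU.1. For CEBPD they were LPXN (0.99), MYO1F (0.97) and PLAC8 (0.97). For TIMP1 they were SLC11A1 (0.98), a transporter of phagocyte vesicles, LCP2 (0.97), a signalling adaptor of blood cells, and BCL3 (0.96). For OLFM4 they were the muscle filament gene DES (0.97), SH3BP1 (0.97) and the complement protease gene C1R (0.97). Each r of OLFM4 rests on the P28+24h injured libraries, since it had at most 4 reads in any other library. Among the 4 genes themselves, r was 0.96 between CEBPD and LBP, 0.92 between TIMP1 and CEBPD, and 0.75 between TIMP1 and OLFM4. These values describe 7 libraries that share runs, groups and depth, and the 661 genes were mostly those the study had listed as changed by injury.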

How the data were processed

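Whole-number read counts per gene were deposited by the authors. Per their methods and the processing notes of the submitters, 100 bp single-end reads of polyadenylated RNA were trimmed, aligned with Bowtie2 2.0.4 to the Ensembl release 69 opossum genome and counted with HTSeq over nuclear genes, and the authors tested groups with edgeR 2.6.12. Whether counting used strand is not given in the sources used here. The labels and the methods differ on RNA integrity and on whether RNA came from individual or pooled cords.

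Counts were refitted with edgeR 4.0.16 in R 4.3.3: TMM factors, filterByExpr with a minimum count of 10 (13534 genes), a fit of all 4 groups without the run (3 residual degrees of freedom) and Benjamini-Hochberg adjustment. A call needed an adjusted p under 0.05 and a change of at least 2-fold. Standard errors were derived from the quasi-likelihood statistic. The labels state that the runs were collected separately, so the run number pairs libraries (run differences of the groups correlated with r from 0.7 to 0.8), and the run was added as a block in a second fit. DESeq2 1.42.0, edgeR's exact test, a likelihood ratio test in the blocked fit, other scalings and filters, and leaving out each library were alternatives. Ratios resting on 1 to 3 control reads carry exact conditional intervals, and a count of 0 was replaced by 3 reads for ratios against the floor. The tests were tried on simulated counts. The members, lists and tests were chosen with earlier results of these data known. Symbols were paired with identifiers through the study's tables for 664 genes, and some list genes are not reported here. Named genes were the members, the 3 genes most like each, and, from each pathway list, called genes, the 2 most abundant genes and direct partners of the members. P-values measure the spread between these libraries. The P29 control has 1 library, so in contrasts with it the spread comes from the other groups and not from P29 controls.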

Additional observations from a re-analysis of the deposited data

How the results depend on the processing

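With the replicate block, calls went from 0 to 2 at P7+24h, from 0 to 102 at P28+24h, from 242 to 2893 between the controls and from 0 to 5 for the difference between ages, and with a likelihood ratio test in that fit to 36, 493, 3242 and 199. With the block, pathway genes called went from 0 to 5 at P28+24h and from 0 to 6 between the controls. The likelihood ratio test called 5, 12 and 7 at P7+24h, P28+24h and between the controls. With no low-count filter, 1 was called between the controls. These counts include the 4 genes described here. At P28+24h they made up 2 of the calls with the block and 4 with the likelihood ratio test. At P7+24h they made up 2 with the likelihood ratio test. Those calls after injury carry no weight, since these contrasts chose the genes. The exact test called 4, 3 and 943 genes at P7+24h, at P28+24h and between the controls, DESeq2 called 2 and 862 at P7+24h and between the controls, and library size alone called 138 between the controls. The adjusted p of LBP between the controls was 0.000637 with the block, 1.26e-07 with the likelihood ratio test, 0.00265 with the exact test, 0.0149 with DESeq2 and 0.0488 with no low-count filter. That of CEBPD was 0.00639 with the block and 0.000171 with the likelihood ratio test. The level of OLFM4 after injury at P28 was 16 CPM by library size alone.

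Leaving out each library in turn, the fit without the run called 0 to 139 genes between the controls, 0 of them without either P8 control. The log2 change ranged from 0.83 to 2.89 for TIMP1 and from 1.11 to 1.82 for CEBPD after injury at P7, from 1.34 to 1.59 for CEBPD after injury at P28, and the difference between ages ranged from -1.15 to 0.91 for TIMP1 and from -0.31 to 0.40 for CEBPD. With the block, calls ranged from 7 to 51 at P7+24h, from 300 to 960 at P28+24h and from 24 to 719 for the difference, CEBPD ranged from 1.09 to 1.81 at P7+24h and from 1.34 to 1.98 at P28+24h, and the difference from -0.45 to 0.92 for TIMP1 and from -0.31 to 0.53 for CEBPD. LBP and CEBPD stayed called between the controls in all 6 of these blocked fits, with an adjusted p of at most 0.000605 for LBP and 0.0133 for CEBPD. The single P29 control could not be left out. The cause of these shifts was not tested. Depth limits LBP and OLFM4 in the younger cords, where they rest on 0 to 17 reads.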
